A study of Homo sapiens with 96 samples.

Results

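Silencing of EGFR, the epidermal growth factor receptor, was measured in HaCaT-HRAS cells on 6 of the 96 arrays of the study: 3 arrays of cells that received siRNA to EGFR (siEGFR) and 3 of cells that received scramble siRNA. These 6 were all the arrays of the line labelled with an siRNA and with neither drug nor PBS. HaCaT is an established, immortalized line of human keratinocytes, the main cell type of the epidermis. Both groups carried the same construct, HRASVal12D, a mutant form of the small GTPase HRAS, delivered by lentivirus behind a CMV promoter. The line is a pool of cells selected with puromycin, so it stands for 1 transduced population. Each group held 2 arrays of batch J and 1 of batch M, as the labels name the array batches. A single siRNA against EGFR was used, so changes that follow from loss of EGFR and other effects of that siRNA cannot be told apart from these 6 arrays. The study gives the time of its knockdown check in HaCaT-Mock cells, and no time after transfection is stated outright for the HaCaT-HRAS arrays. Nothing says that the arrays of a group came from separate cultures. The p-values therefore measure the spread between arrays, which may be technical. That spread was pooled over all 89 HaCaT construct arrays and not taken from these 6 alone.

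The same siRNA was used in 3 further HaCaT lines, HaCaT-Mock (empty vector), HaCaT-EGFR and HaCaT-PIK3CA, with 3 siEGFR and 3 scramble arrays each. In HaCaT-HRAS itself 3 arrays each were also treated with afatinib (10 nM), gefitinib (100 nM) or cetuximab (100 nM), and 3 with PBS. Afatinib and gefitinib are small molecules that block the kinase of EGFR, afatinib also acting on the other HER family receptors, and cetuximab is an antibody that binds EGFR from outside. None of these arrays is shared with the knockdown in HaCaT-HRAS, and they serve below only to show where that knockdown differs.

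EGFR sits at the keratinocyte surface and binds ligands such as TGFA, HBEGF, amphiregulin and epiregulin. The bound receptor recruits adaptors that load RAS with GTP, and RAS then starts the RAF, MEK and ERK kinase cascade, while other branches run through PI3K and AKT and through STAT3. Active ERK raises the transcription of early genes such as EGR1 and FOS and of its own inhibitors, among them the DUSP phosphatases and the Sprouty proteins. Mutant RAS stays loaded with GTP without a signal from the receptor. In the epidermis, EGFR signalling keeps basal keratinocytes dividing and holds back terminal differentiation.

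Levels are deposited log2 expression values of 1 probe set per gene, and differences are siEGFR minus scramble on the same log2 scale. Array values are given in the order batch J, batch J, batch M. The 6 arrays had median levels between 5.09 and 5.12 and correlated with each other at 0.987 to 0.997. The 3′ minus 5′ difference of the ACTB control probes was 1.42 to 1.49 in the batch J arrays of both groups and 0.40 to 0.48 in those of batch M, so this sign of RNA quality followed the batch and not the siRNA. All 8 keratinocyte markers lay above the median gene (6.05), at levels between 9.94 and 13.4. Of 15 markers of fibroblasts, endothelium, blood and melanocytes, 14 lay below it and none changed at an adjusted p under 0.05 (limma, 0 at an unadjusted p under 0.05).

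The target fell first. EGFR was at 10.60, 10.80 and 9.93 in the scramble arrays and at 8.71, 8.73 and 7.96 in the siEGFR arrays. The batch M array was the lowest of each group, and the groups did not overlap. The fitted difference was -1.97 (SE 0.0957, limma with Benjamini-Hochberg adjustment, adjusted p = 1.45e-22), which left 25.5% of the scramble level on the probe set used. It was -1.98 within batch J and -1.97 within batch M. Of the 9 EGFR probe sets 5 were lower at an adjusted p under 0.05 (limma), with differences from -2.04 to -0.87. The other 4 also had negative differences, which did not pass, and sat between 4.4 and 6.0, near or below the median gene. EGFR changed by -2.11 in HaCaT-Mock, -1.71 in HaCaT-EGFR and -1.89 in HaCaT-PIK3CA, and the response of HaCaT-HRAS differed from their mean by -0.07 (SE 0.111). The inhibitors moved the EGFR transcript of HaCaT-HRAS by -0.05 (adjusted p = 0.827). HRAS, for which the source does not say whether the probe set reads the introduced copy, was at 8.37, 8.46 and 8.92 with scramble and at 8.55, 8.47 and 8.94 with siEGFR, and the pooled groups overlapped (adjusted p = 0.816). TFAP2A, the gene of the transcription factor AP-2alpha that the study followed, was at 9.69, 9.77 and 9.45 against 9.81, 9.79 and 9.71. The pooled groups overlapped, although the siEGFR arrays were higher within both batches. The TFAP2A difference of 0.13 (SE 0.0571, adjusted p = 0.194) did not pass the test.

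Besides EGFR, many genes moved by a small amount. With siEGFR 712 genes were higher (3.6% of 19775) and 531 lower (2.69%) at an adjusted p under 0.05, and the median size of the change among them was 0.40. A difference of at least 1 was reached by 29 of the higher and 9 of the lower genes. The median over all genes was -0.0057. The plot of difference against adjusted p shows EGFR apart from every other gene. The count of changed genes moved with the model and the arrays in it: 310 passed without the batch term, 456 in batch J alone, 2354 with the 24 siRNA arrays of the 4 lines and 3169 when arrays were weighted.

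**Figure D1:**
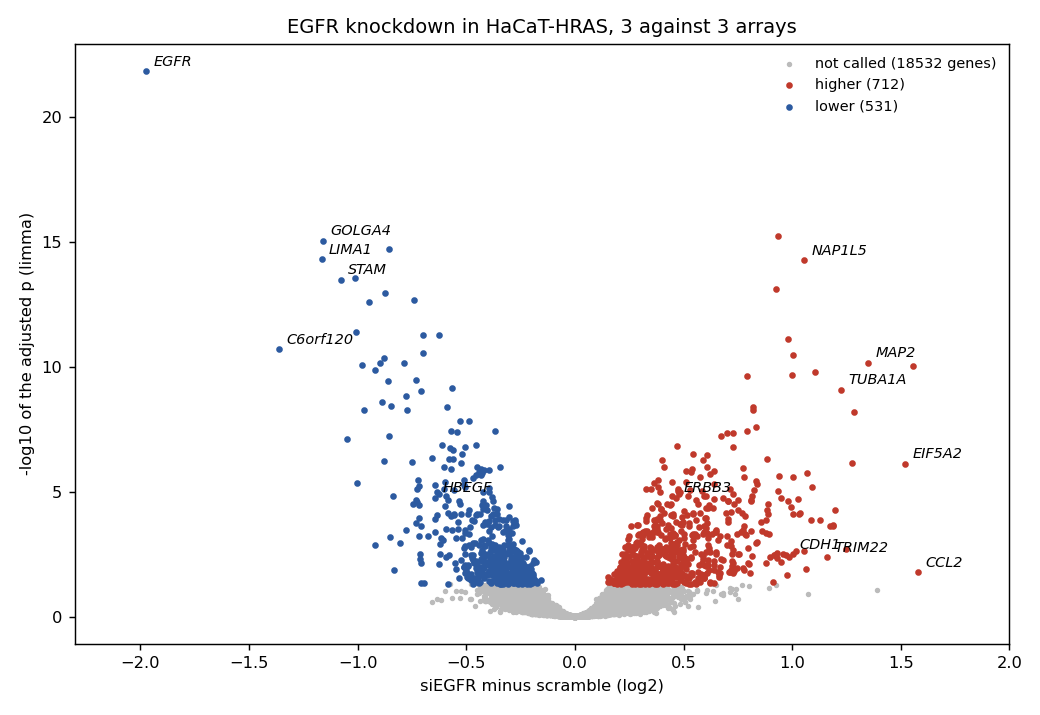
Difference between siEGFR and scramble arrays in HaCaT-HRAS (x axis, log2) against the adjusted p of limma (y axis, -log10), 1 point per gene for 19775 genes, with the 712 higher and 531 lower genes coloured. EGFR, at -1.97, stands apart from all other genes.

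Of genes whose level reached the median gene, the 12 that fell most and the 12 that rose most are described next. After EGFR, C6orf120 fell most, from 9.28, 9.27 and 8.88 to 7.91, 7.88 and 7.55 (difference -1.36). LIMA1, an actin-binding protein of stress fibres, went from 10.86, 10.83 and 10.71 to 9.62, 9.75 and 9.54 (-1.17). GOLGA4, a tethering protein of the trans-Golgi, stood at 10.10, 10.19 and 9.59 and at 8.98, 9.09 and 8.34 (-1.16). In all 3 the siEGFR arrays lay below every scramble array. STAM, an adaptor of the ESCRT-0 complex that sorts ubiquitinated receptors such as EGFR at endosomes, was lower by the same measure, at 8.99, 8.99 and 8.88 against 7.96, 7.85 and 7.81 (-1.08). The remaining falls were POLR3G, a subunit of RNA polymerase III (-1.05), RBM47, an RNA-binding protein (-1.01), CDC34, a ubiquitin-conjugating enzyme (-1.01), OTUD6B, a deubiquitinase (-1.0), MCFD2, a cargo receptor partner between ER and Golgi (-0.98), HNRNPUL1, a nuclear RNA-binding protein (-0.97), and FAM199X (-0.95). Some of these falls rest on part of the probe sets. The other probe set of GOLGA4 stood at -0.09 and that of CDC34 at -0.20, and neither passed. Of the 3 MCFD2 probe sets 1 passed, and the highest stood at 0.04. Among the 5 RBM47 probe sets 2 passed, and among the 3 of POLR3G 2 did.

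Among the rises CCL2, the chemokine that draws monocytes, changed most, from 5.98, 6.38 and 5.59 to 7.80, 7.41 and 7.46. Its spread was wide, and the difference of 1.58 had an SE of 0.44 (adjusted p = 0.0171), a call that was lost when siEGFR array 1, scramble array 1 or either batch M array was left out (adjusted p 0.0603 to 0.0898). EIF5A2, a translation factor, was at 5.60, 5.74 and 5.14 against 7.24, 7.09 and 6.71 (1.52, SE 0.213, adjusted p = 7.7e-07). MAP2, a microtubule-associated protein, was at 6.17, 6.42 and 5.80 against 7.66, 7.68 and 7.10 (1.35, SE 0.134). All siEGFR arrays of these 3 genes exceeded all scramble arrays. ZC3HAV1L (1.27), the tubulin TUBA1A (1.22), the mitotic kinase NEK7 (1.19), the sterol-transfer protein GRAMD1C (1.19), SMIM14 (1.17), PDHX, a component of the pyruvate dehydrogenase complex (1.09), the SRC-related kinase FRK (1.09), CYBRD1, a ferric reductase (1.07), and NAP1L5 (1.06) followed. FRK is uncertain, since its other probe set moved by -0.08. Of the 5 SMIM14 probe sets 3 passed, and the lowest stood at 0.14.

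**Figure D2:**
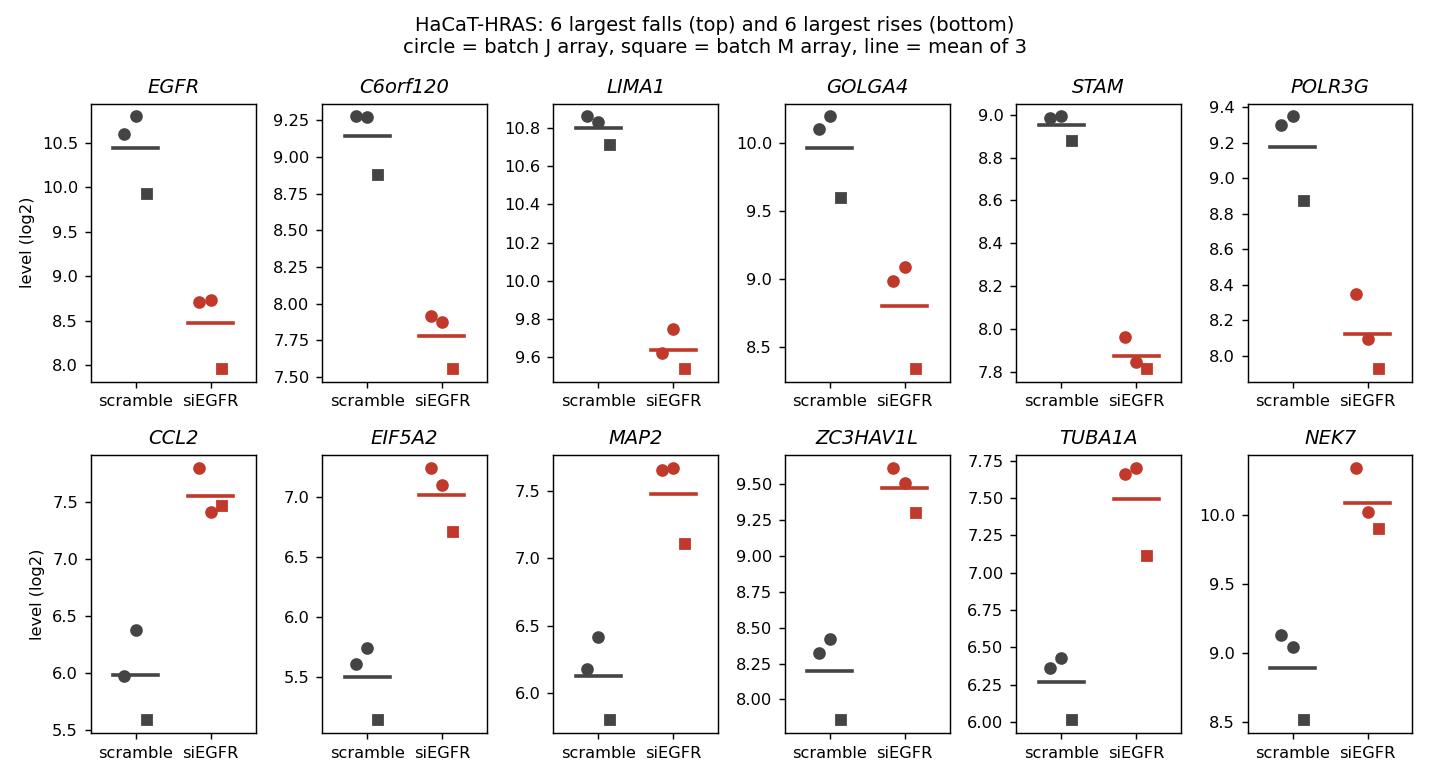
Log2 level of each of the 6 HaCaT-HRAS arrays for the 6 largest falls and the 6 largest rises (circles batch J, squares batch M, line the group mean). The siEGFR arrays lie on 1 side of all scramble arrays for each gene, as for EGFR at 7.96 to 8.73 against 9.93 to 10.80. The genes were chosen by their difference on these arrays, which favours such a gap.

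For all 24 of these genes the 2 groups did not overlap, but they were chosen by their difference on the same arrays. That choice favours a lack of overlap, which is therefore a description and no further support. Over all genes tested, every siEGFR array lay above every scramble array for 7.68% and below for 7.97%. All 24 also changed in the same direction in each of the 3 other lines, and for none did limma call a difference between the response of HaCaT-HRAS and their mean (1 at an unadjusted p under 0.05). The median of the 12 rises was 1.19 in HaCaT-HRAS and 1.40 in the mean of the others, and that of the 12 falls was -1.03 and -1.13.

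Counts of list members from here on are to be read beside 3.6% of all genes higher and 2.69% lower with siEGFR. At the receptor level 1 of the 4 ERBB receptors rose, and 1, the target, fell. ERBB3, the partner receptor whose own kinase is weak, went from 8.35, 8.41 and 8.28 to 8.84, 8.79 and 8.82, a rise of 0.47 (SE 0.0766, adjusted p = 1.73e-05) with no overlap. Of the 5 ERBB3 probe sets 2 rose at an adjusted p under 0.05 (limma), and the lowest stood at -0.20. ERBB2, the receptor without a known ligand, was at 7.76, 7.83 and 8.18 against 7.84, 7.80 and 8.15, and its groups overlapped (difference 0.01, adjusted p = 0.989). Of 9 ligands measured 1 fell. HBEGF, a membrane-anchored ligand that is shed to act on neighbouring cells, dropped from 9.31, 9.40 and 9.45 to 8.62, 8.74 and 8.85 (-0.64, SE 0.106, adjusted p = 1.75e-05). Of the 4 HBEGF probe sets 2 passed, and the highest stood at 0.09. TGFA, the ligand best known from keratinocytes, was at 10.68, 10.65 and 10.49 against 10.37, 10.11 and 10.25, lower on every siEGFR array, but its difference of -0.37 did not pass (adjusted p = 0.0551). Epiregulin (EREG) had overlapping groups and a difference of 0.32 (adjusted p = 0.562). Of 17 adaptors and attenuators of the receptor 2 fell: SOCS5, a suppressor of EGFR signalling (-0.60, adjusted p = 3.68e-05), and RNF41, a ubiquitin ligase for ERBB3 (-0.34, adjusted p = 0.0151, and 0.0928 without siEGFR array 1 or 0.0743 without scramble array 3). The median of that list was -0.06.

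Among genes that report on ERK a few fell. Of 29 measured genes of MAPK output and feedback 4 fell and none rose (6 and 1 at an unadjusted p under 0.05, limma), beside 2.69% of all genes lower and 3.6% higher, with a median of -0.13 against -0.0057 over all genes. EGR1, an immediate-early transcription factor, was at 9.43, 9.61 and 9.23 in the scramble arrays and at 9.01, 8.97 and 8.69 in the siEGFR arrays (-0.54, SE 0.16, adjusted p = 0.0297). The EGR1 call held without scramble array 1 but was lost without any of the other 5 arrays (adjusted p up to 0.119). DUSP5, the nuclear phosphatase of ERK, was at 8.87, 8.85 and 8.99 against 8.21, 8.27 and 8.40 (-0.61, SE 0.128, adjusted p = 0.000896). DUSP7, a cytoplasmic phosphatase of ERK, changed from 9.13, 9.19 and 8.89 to 8.67, 8.54 and 8.48 (-0.51, adjusted p = 0.00186). These 3 genes and PLAUR, the urokinase receptor (9.60, 9.64 and 9.92 against 9.19, 9.23 and 9.48, -0.42, adjusted p = 0.00403), had no overlap between groups.

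DUSP6, the cytoplasmic ERK phosphatase often read as a measure of ERK activity, was at 10.79, 10.72 and 10.53 with scramble and at 10.58, 10.39 and 10.40 with siEGFR. The pooled groups overlapped, although the siEGFR arrays were lower within both batches. The DUSP6 difference was -0.22 (SE 0.211, adjusted p = 0.685). IER3, an early-response survival gene, was at 10.86, 10.96 and 11.10 against 10.60, 10.73 and 10.75 (-0.28, SE 0.118, adjusted p = 0.186). DUSP4, a nuclear phosphatase, was at 8.46, 8.50 and 8.56 against 8.50, 8.56 and 8.68, with overlap and a difference of 0.07. SPRY2 (-0.02) and SPRY4 (-0.18), both Sprouty inhibitors of RAS signalling, and the ETS factors ETV4 (0.01) and ETV5 (0.08) did not pass either. FOSL1, a partner of JUN in AP-1, was at 8.62, 8.68 and 9.35 against 8.11, 8.15 and 8.69, lower within both batches, with a wide SE of 0.239 (-0.57, adjusted p = 0.178).

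The promoters of EGR1, which fell, and DUSP6, which did not pass, are shown because both are textbook targets of ERK. Both windows come from RefSeq (GRCh38.p14), run 5′ to 3′ on the strand of the gene and hold 300 bases around the start of the transcript. EGR1 lies on the plus strand at chr5:138465229-138465528 and DUSP6 on the minus strand at chr12:89352452-89352751. In capitals are CArG boxes (the site of serum response factor) and cyclic AMP response element (CRE) cores TGACG in EGR1, and CGGAA, a form of the ETS core, in DUSP6, each searched on both strands.
EGR1: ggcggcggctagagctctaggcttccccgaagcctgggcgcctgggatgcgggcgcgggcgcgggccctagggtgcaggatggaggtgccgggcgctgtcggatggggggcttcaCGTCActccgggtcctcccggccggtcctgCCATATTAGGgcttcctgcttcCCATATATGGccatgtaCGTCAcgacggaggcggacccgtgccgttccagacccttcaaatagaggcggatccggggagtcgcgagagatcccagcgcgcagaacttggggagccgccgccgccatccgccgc
DUSP6: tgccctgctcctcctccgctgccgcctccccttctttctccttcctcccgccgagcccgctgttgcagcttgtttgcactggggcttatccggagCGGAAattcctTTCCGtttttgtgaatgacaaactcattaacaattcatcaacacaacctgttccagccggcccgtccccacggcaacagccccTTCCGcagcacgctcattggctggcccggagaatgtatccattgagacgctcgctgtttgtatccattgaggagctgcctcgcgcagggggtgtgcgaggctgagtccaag
The EGR1 window held 2 CArG boxes and 2 TGACG cores and no CGGAA, while DUSP6 held 3 CGGAA matches and none of the others. Other forms of the ETS core were not searched, so the absence of CGGAA does not mean that EGR1 lacks ETS sites. Over 35116 promoter windows of the same length 1.29% held a CArG box, 24.6% TGACG and 34.9% CGGAA. A match of letters is a description and not evidence of binding.

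The same ERK list moved further in the 3 other lines. It had 18 members lower in HaCaT-Mock (5.36% of all genes were lower there), 16 in HaCaT-EGFR (4.71%) and 12 in HaCaT-PIK3CA (5.61%), and its median in their mean response was -0.43. The test of the difference in response itself called 26 genes of 19775 (0.131%), and 3 of the 29 list members were among them. DUSP6 changed by -1.16, -1.70 and -1.21 in HaCaT-Mock, HaCaT-EGFR and HaCaT-PIK3CA, and its response in HaCaT-HRAS lay 1.13 above their mean (SE 0.244, adjusted p = 0.0253). IER3 changed by -1.10, -1.16 and -1.06 there, with a difference in response of 0.83 (SE 0.137, adjusted p = 0.00102). DUSP5, which did fall in HaCaT-HRAS, changed by -1.34, -1.17 and -1.32 in the others (difference 0.67, SE 0.148, adjusted p = 0.0364). The difference held for IER3 without any 1 of the 6 HaCaT-HRAS arrays (adjusted p 0.0039 to 0.0178), among 3 to 8 genes in all. For DUSP6 (0.0564 to 0.149) and DUSP5 (0.0789 to 0.163) it was lost without each of them.

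Across the list 27 of 29 members (93.1%) had a response in HaCaT-HRAS above the mean of the other lines, against 53.1% of all genes. Genes that fell elsewhere fell less in HaCaT-HRAS in general, which sets the scale for that count. The 23 list members that were lower in the mean of the others had a median of -0.50 there and -0.15 in HaCaT-HRAS. The 2546 lower genes outside the list had -0.22 and -0.15, and 81% of them were above the mean of the others. The 27 genes that fell by at least 1 in the others had a median of -1.20 there and -0.72 in HaCaT-HRAS. List members were not left out of these 27 genes, which include DUSP5, DUSP6, FOSL1 and IER3 as well as EGFR. These genes were chosen on the values of the other lines, so the comparison is a description with no test.

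**Figure D3:**
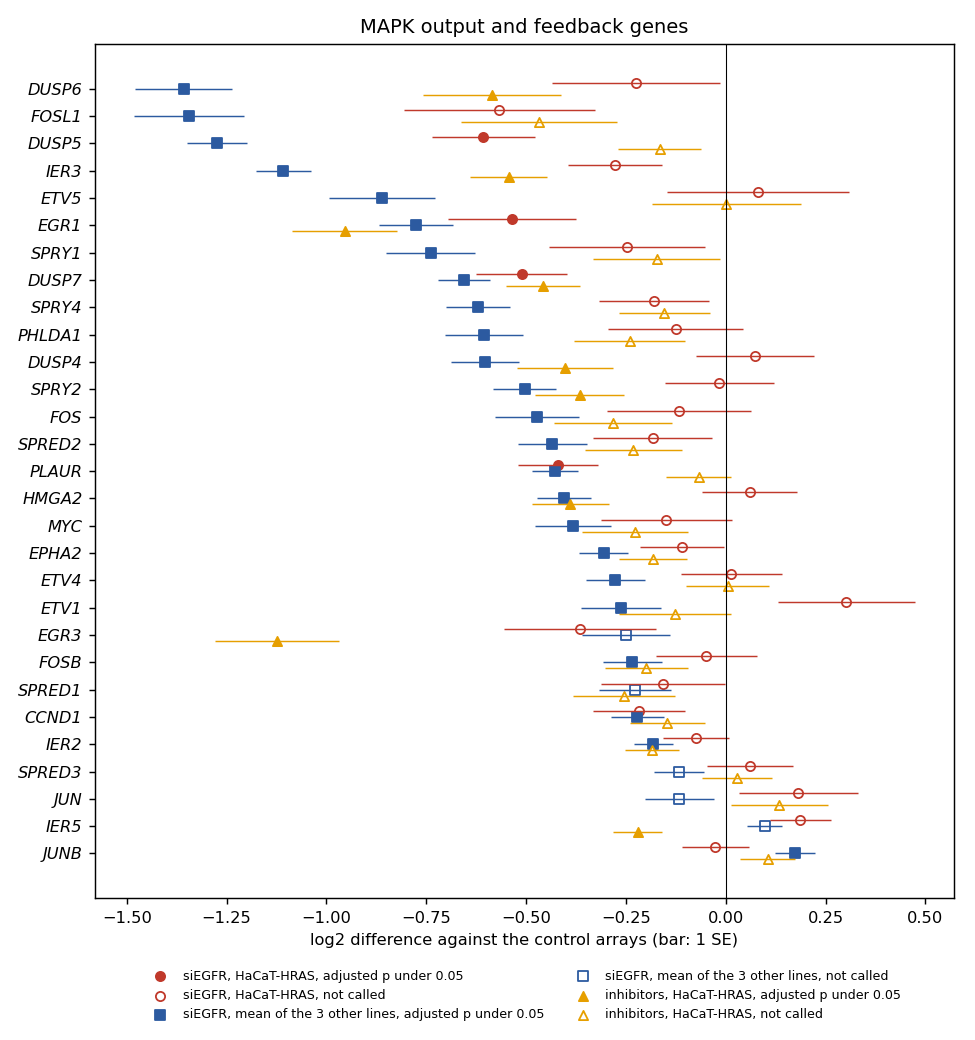
Log2 difference (x axis) of 29 genes of MAPK output and feedback for siEGFR against scramble in HaCaT-HRAS, for the mean of the same contrast in the other 3 lines, and for the inhibitors against PBS in HaCaT-HRAS; bars are 1 SE and filled points passed the test. DUSP6 and IER3 lie near -0.22 and -0.28 in HaCaT-HRAS and near -1.36 and -1.11 in the other lines.

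Several of these genes already differed between the scramble arrays of HaCaT-HRAS and HaCaT-Mock. The scramble level in HaCaT-HRAS was above that in HaCaT-Mock by 1.72 for HBEGF, 1.23 for PLAUR, 0.94 for DUSP5 and 0.74 for DUSP6, but by 0.26 for IER3 and 0.11 for ETV5. The part of the starting level in the smaller responses was not tested. HBEGF changed by -1.17, -1.04 and -1.10 in the other lines, and its difference in response of 0.46 did not pass (adjusted p = 0.157).

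Outside the ERK list the called differences in response went both ways. ANTXR2, an anthrax toxin receptor that binds collagen, was at 8.32, 8.37 and 7.91 with scramble and 7.94, 8.12 and 7.70 with siEGFR. The pooled groups overlapped, although the siEGFR arrays were lower within both batches. The ANTXR2 difference of -0.28 stood against -1.27 in the other lines (difference in response 0.99, SE 0.163, adjusted p = 0.00102, and 0.0039 to 0.0178 with 1 array left out). ID1 and ID2, inhibitors of basic helix-loop-helix factors that are induced by BMP signals, had lower responses than elsewhere. ID2 went from 6.10, 5.95 and 5.49 to 6.75, 6.60 and 6.30, a rise of 0.70 against 1.50 elsewhere (difference -0.79, adjusted p = 0.0115). ID1 was at 8.97, 9.0 and 9.13 against 8.90, 8.86 and 8.81, a difference of -0.17 that did not pass, where the others rose by 0.68 (difference -0.85, adjusted p = 0.014). The difference was lost for ID2 without siEGFR array 2 or scramble array 1 (adjusted p up to 0.0923) and for ID1 without siEGFR array 3, scramble array 1 or scramble array 2 (up to 0.103). The scramble level in HaCaT-HRAS minus that in HaCaT-Mock was -1.28 for ID1 and -1.76 for ID2. CD274, which encodes the immune checkpoint ligand PD-L1, dropped from 8.18, 8.21 and 8.0 to 7.85, 7.84 and 7.71 (-0.33, adjusted p = 0.0222), and by 1.07 in HaCaT-Mock (difference 0.74, adjusted p = 0.00714). Its own fall in HaCaT-HRAS held without siEGFR array 3 and was lost without any of the other 5 arrays (adjusted p up to 0.0957), and its difference was lost without siEGFR array 3 (0.0625). Against HaCaT-Mock alone 5 genes differed in response (0.0253%).

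Most of the response was nonetheless held in common. Of the 712 higher genes 513 were also higher in HaCaT-Mock (72.05%, and 47.59% of the genes higher there, which were 5.45% of all genes), 484 in HaCaT-EGFR (67.98% and 51.49%, of 4.75%) and 550 in HaCaT-PIK3CA (77.25% and 46.18%, of 6.02%). Of the 531 lower genes 411 (77.4% and 38.77%), 412 (77.59% and 44.25%) and 424 (79.85% and 38.23%) were shared in the same way. All 3 other lines shared 417 of the higher (58.57%) and 362 of the lower genes (68.17%), while 112 and 69 changed in none of them. Across 19775 genes the differences of HaCaT-HRAS correlated with those of the other lines at a Pearson r of 0.654 to 0.676. Genes are not independent replicates, and the lines share the siRNA and the batches, so these are descriptions.

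**Figure D4:**
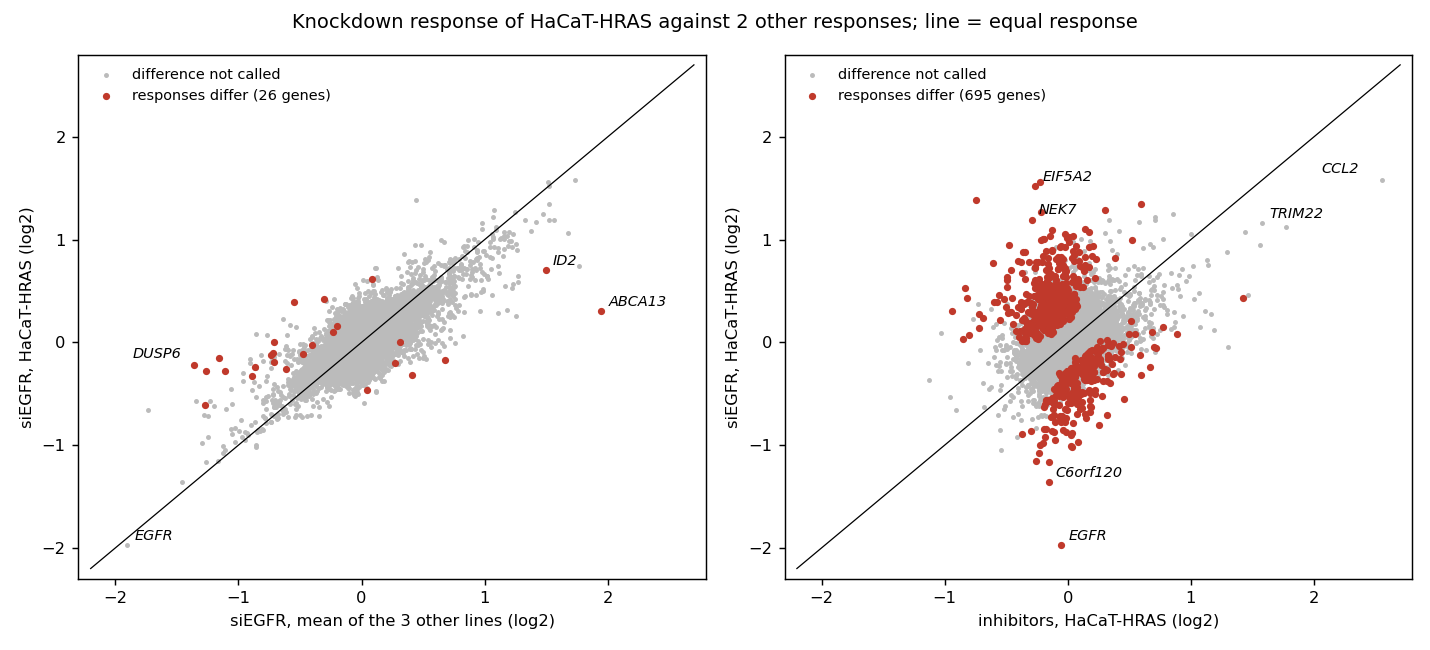
Log2 difference for siEGFR against scramble in HaCaT-HRAS (1 point per gene) against the mean difference of the 3 other lines and against the difference for the inhibitors in HaCaT-HRAS; the line marks equal values. The knockdown correlates with its counterpart in each other line at 0.654 to 0.676 and with the inhibitors at 0.237.

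The inhibitors of EGFR gave a largely different set of called genes in the same line. The controls of the 2 contrasts differ, scramble siRNA for the knockdown and PBS without siRNA for the inhibitors. The study states a treatment time for the inhibitors but none outright for these siRNA arrays. The part of control and time in the difference was not tested. The mean of the 3 inhibitors against PBS raised 754 genes (3.81%) and lowered 435 (2.2%). Of the 712 genes that siEGFR raised 106 were among the former (14.89%, against 3.81% of all genes, and 14.06% of the inhibitor genes). Of the 531 that it lowered 56 were among the latter (10.55%, against 2.2% of all genes, and 12.87%). A further 21 and 10 were called in the opposite direction. The correlation across genes was 0.237 for the mean of the inhibitors, 0.307 for afatinib, 0.146 for gefitinib and 0.168 for cetuximab. The test of the difference between the 2 responses called 695 genes (3.51%), among them 298 of the 712 and 191 of the 531. Those 712 and 531 genes were chosen on siEGFR arrays that also enter this test. A high share among them is thus partly built in.

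Of the 12 largest rises with siEGFR 4 also rose with the inhibitors, and 3 of the 12 falls also fell. Both sets were chosen by their size with siEGFR, which by itself favours a smaller value with the inhibitors. CCL2 rose further with the inhibitors (2.56, adjusted p = 3.9e-06), and TUBA1A (0.71), MAP2 (0.60) and SMIM14 (0.58) rose by less than with siEGFR. EIF5A2 had an inhibitor value of -0.26 (adjusted p = 0.465), and the 2 responses differed by 1.79 (SE 0.276, adjusted p = 1.34e-05). ZC3HAV1L and NEK7 differed by 1.49 each. C6orf120 (-0.16 with inhibitors), RBM47 (0.03), CDC34 (0.03) and HNRNPUL1 (0.08) did not pass with the inhibitors, and their response to siEGFR minus that to the inhibitors was -1.21, -1.05, -1.03 and -1.05. DOCK4, an exchange factor for small GTPases, went opposite ways: it rose by 0.95 with siEGFR (6.92, 6.98 and 6.42 against 7.91, 7.79 and 7.46) and fell by 0.48 with the inhibitors (difference 1.43, adjusted p = 1.97e-06). Of the 4 DOCK4 probe sets 2 moved up with siEGFR, 1 of them passing the test, and the lowest stood at -0.09. UBE2V2, a ubiquitin-conjugating enzyme variant (1.25), and OGFRL1 (-1.06) were the other genes with the largest differences among those whose level reached the median gene. Below that level MMP1 differed by more (2.14, adjusted p = 0.0442), a call that was lost without each of the 6 arrays (adjusted p 0.0652 to 0.121).

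Genes of the ERK list also fell with the drugs. With the inhibitors 9 of its 29 members fell (2.2% of all genes did), with a median of -0.22, beside the 4 and -0.13 of siEGFR. The mean of the inhibitors rests on more treated arrays than siEGFR, so the 2 counts are not at equal precision. EGR1 fell by 0.95 with the inhibitors (adjusted p = 2.56e-06), IER3 by 0.54, DUSP7 by 0.46 and DUSP6 by 0.59 (adjusted p = 0.0294). The difference between the responses did not pass for EGR1 (0.42, adjusted p = 0.356), IER3 (0.27, adjusted p = 0.468) or DUSP6 (0.36, adjusted p = 0.636), which does not show that they are equal. It was called for 1 of the 29 members, IER5, and for 3.51% of all genes. IER5 stood at 0.19 with siEGFR and at -0.22 with the inhibitors. That call held without any 1 of the 6 siRNA arrays (limma, adjusted p 0.00444 to 0.045).

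In the PI3K branch 1 of 16 genes rose and 1 fell. PIK3R1, the regulatory subunit p85alpha, was at 7.04, 7.19 and 6.51 against 7.86, 7.65 and 7.49 (0.75, adjusted p = 2.23e-05). PIK3CB, a catalytic subunit, was lower by a difference of -0.46 (adjusted p = 8.61e-05) within batches, although the pooled groups overlapped. Of 17 targets of FOXO factors, which AKT keeps out of the nucleus, 2 rose: BCL6, a transcriptional repressor (0.70, adjusted p = 4.28e-08), and FBXO32, a ubiquitin ligase (0.64, adjusted p = 0.0084, lost without siEGFR array 2 at 0.0715 or scramble array 3 at 0.0903). FBXO32 also rose with the inhibitors (0.73) and BCL6 did not pass there (-0.02). Of the 3 BCL6 probe sets 1 passed with siEGFR, and the lowest stood at -0.06. Of the 7 FBXO32 probe sets 2 did, and the lowest stood at -0.07. Of 11 STAT3 targets PIM1 (-0.21) and OSMR (-0.19) fell, and both calls were lost with single arrays left out, PIM1 without each of the 6 (adjusted p up to 0.14) and OSMR without any except scramble array 1 (up to 0.151). On the probe set that varies most OSMR stood at 0.13.

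Differentiation genes moved little. None of 19 suprabasal genes changed (limma, 2 at an unadjusted p under 0.05), with a list median of -0.03. KRT10, the suprabasal keratin, was at 10.50, 10.42 and 10.37 against 10.54, 10.47 and 10.34, and KRT1 at 4.91, 5.0 and 4.62 against 4.75, 4.69 and 4.88, both with overlap. Of 16 genes of the cornified envelope, the protein shell of dead surface cells, 2 rose (3.6% of all genes did). IVL, the envelope protein involucrin, went from 6.37, 6.42 and 6.03 to 7.10, 7.16 and 6.83 (0.76, SE 0.177, adjusted p = 0.00316), and FLG, filaggrin, from 10.18, 10.23 and 9.89 to 10.80, 10.69 and 10.57 (0.59, SE 0.144, adjusted p = 0.00516). In both the siEGFR arrays lay above all scramble arrays. Neither passed with the inhibitors, where each was at 0.15. Of 12 basal genes DST, which anchors keratin to hemidesmosomes, rose (0.61, adjusted p = 0.00138), and ITGA3, an integrin that binds laminin, fell from 7.28, 7.40 and 7.95 to 6.75, 6.86 and 7.27 (-0.59, adjusted p = 6.84e-05).

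Among 19 junction genes 1 rose. CDH1, E-cadherin, the adhesion molecule of epithelia, was at 10.61, 10.60 and 10.48 with scramble and at 11.61, 11.51 and 11.58 with siEGFR, a rise of 1.00 (SE 0.235, adjusted p = 0.00316) with no overlap. It was raised by 1.12, 1.07 and 1.29 in HaCaT-Mock, HaCaT-EGFR and HaCaT-PIK3CA, and stood at 0.11 with the inhibitors. Over all genes 3.6% were called higher and 7.68% had every siEGFR array above every scramble array. Of 13 mesenchymal genes 3 rose as well, with no overlap between groups. They were SPARC, a matrix protein (7.81, 7.85 and 7.60 against 8.62, 8.53 and 8.29, 0.73, adjusted p = 4.62e-08), ACTA2, smooth muscle actin (0.48, adjusted p = 0.00084), and VIM, vimentin (7.56, 7.61 and 7.55 against 7.95, 8.0 and 7.96, 0.40, adjusted p = 0.0222). The other VIM probe set stood at -0.07 with siEGFR. VIM fell by 0.33 with the inhibitors, and that response differed from the one to siEGFR by 0.72 (adjusted p = 0.00094). For ACTA2 and VIM the values in the mean of the other lines were 0.03 and 0.04, but the differences in response of 0.45 and 0.36 did not pass (adjusted p = 0.137 and 0.592). Of 21 TGF-beta and BMP genes 3 rose: ID2, ID3 (0.50, adjusted p = 0.00335) and TGFB2, a TGF-beta ligand (0.80, adjusted p = 0.0176), which stood at -0.019 on the probe set that varies most. TGFB2 was called without scramble array 2 or siEGFR array 3 but not without any of the other 4 arrays (up to 0.0865), and VIM without siEGFR array 1 but not without any of the other 5 (up to 0.0817).

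Cell cycle genes changed in small steps. Of 20 S phase genes 5 rose and 1 fell, beside 3.6% of all genes higher and 2.69% lower, with a list median of 0.08. GINS1, a part of the replicative helicase, went from 10.40, 10.37 and 10.11 to 10.85, 10.82 and 10.64 (0.48, SE 0.0755, adjusted p = 9.4e-06). TYMS, thymidylate synthase (0.38), and MCM6, a helicase subunit (0.28), rose with it. CCNE2, a cyclin of the G1 to S transition, fell from 8.04, 7.92 and 7.31 to 7.23, 6.99 and 6.86 (-0.73, SE 0.138, adjusted p = 0.000178). CDK6, a G1 kinase, was at 9.48, 9.79 and 9.39 against 10.29, 10.42 and 10.27 (0.77, adjusted p = 1.18e-06), and KIF11, the mitotic kinesin, was the 1 of 20 G2 and M genes that rose (0.49). With the inhibitors GINS1, TYMS, MCM6, CDK6 and CCNE2 had values between -0.24 and -0.06, none of which passed. Among 18 genes of the BCL2 family and death receptors TNFSF10, the death ligand TRAIL (0.93), and PMAIP1, the BCL2 antagonist NOXA (0.75), rose, and the TRAIL receptors TNFRSF10A (-0.48) and TNFRSF10B (-0.40) fell. TNFSF10 lost its call without siEGFR array 1 (adjusted p = 0.0565), PMAIP1 without scramble array 3 (0.0773), TNFRSF10B without siEGFR array 2 (0.0598) and TNFRSF10A without any array except siEGFR array 3 (up to 0.166).

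Both groups received an siRNA, which is a double-stranded RNA, and genes of innate immunity are therefore described. Of 28 interferon response genes 5 rose and none fell (limma, 8 and 0 at an unadjusted p under 0.05), beside 3.6% of all genes higher and 2.69% lower, and the list median was 0.17. TRIM22, an antiviral ubiquitin ligase, was at 4.49, 4.64 and 4.53 against 5.93, 5.78 and 5.43 (1.16, SE 0.279, adjusted p = 0.0042), both below the median gene. IFIT1, which binds foreign RNA, was at 8.70, 8.57 and 8.41 against 9.32, 9.21 and 9.13 (0.66, adjusted p = 0.0168). IFI44 (0.65), IFI6 (0.57) and HERC5 (0.46) also rose. With 1 array left out 3 to 5 members were called: IFIT1 was lost without siEGFR array 1, siEGFR array 2, scramble array 2 or scramble array 3 (adjusted p up to 0.104), HERC5 without siEGFR array 1, scramble array 1 or scramble array 3 (up to 0.0846), and IFI6 without scramble array 2 (0.0615). The inhibitors, without any siRNA, raised 10 members of the list (median 0.29) and 3.81% of all genes, the members including TRIM22 (1.58) and IFIT1 (0.90). Here too the inhibitor count rests on more treated arrays than that of siEGFR. Of 14 RNA sensors 1 changed: ADAR, which edits double-stranded RNA, fell from 10.61, 10.65 and 10.60 to 10.28, 10.29 and 10.21 (-0.36, adjusted p = 0.00286), and rose by 0.24 with the inhibitors. Of 12 genes of the RNA interference machinery TNRC6B (-0.61), AGO2, the slicing Argonaute (-0.46), and TNRC6A (-0.45) fell, beside 2.69% of all genes. TNRC6A was lost without each of the 6 arrays (adjusted p up to 0.197) and AGO2 without siEGFR array 2 (0.0594).

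**Figure D5:**
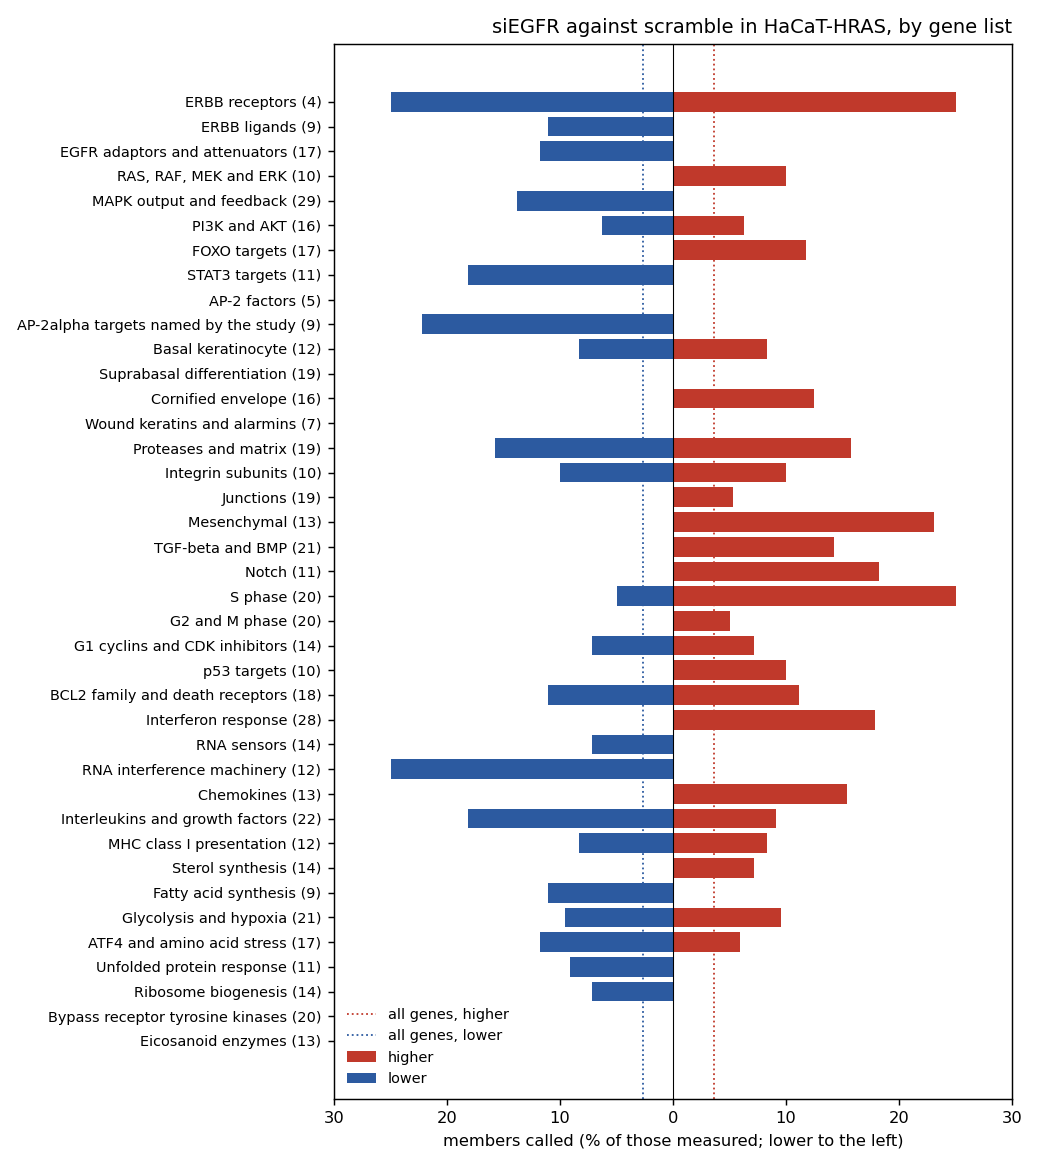
Percent of the measured members of each gene list that rose or fell with siEGFR in HaCaT-HRAS (x axis), with dotted lines at the share of all genes, 3.6% higher and 2.69% lower. Lists hold between 4 and 29 genes, so 1 gene is a large share of a small list.

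Secreted signals went both ways. Of 22 interleukins and growth factors 2 rose and 4 fell, and of 13 chemokines 2 rose and none fell, beside 3.6% of all genes higher and 2.69% lower. IL1A, an epidermal alarm cytokine, dropped from 10.57, 10.59 and 10.29 to 9.81, 9.64 and 9.51 (-0.83, SE 0.226, adjusted p = 0.0138), and IL1B from 10.99, 11.06 and 11.23 to 10.61, 10.66 and 10.74 (-0.43, adjusted p = 0.0143). LIF, a cytokine of the IL6 family (-0.49), and VEGFA, which drives vessel growth (-0.39, adjusted p = 0.0475), were also lower. IL1A was lost without siEGFR array 2 or scramble array 3 (adjusted p up to 0.0725), IL1B without siEGFR array 1 or scramble array 3 (up to 0.0926) and VEGFA without each of the 6 (up to 0.135). IL6 rose from 5.41, 5.30 and 5.20 to 6.10, 5.79 and 5.80 (0.59, adjusted p = 0.000403), with every scramble array below the median gene. IL24 (0.60) and the chemokine CXCL6 (0.98) rose on the strength of batch J, where the differences were 0.85 and 1.31 against 0.11 and 0.32 in batch M, and CXCL6 was lost without any of the batch J arrays (adjusted p up to 0.155). Of 12 genes of MHC class I presentation PSMB9, a subunit of the immunoproteasome, rose (0.51, adjusted p = 0.0232), a call that held without scramble array 2 or siEGFR array 3 and was lost without any of the other 4 (up to 0.108). TAP2, a peptide transporter, fell (-0.71, adjusted p = 9.67e-10) on the probe set used and stood at 0.11 on the probe set that varies most.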

How the data were processed

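Gene expression was measured on Affymetrix U133 Plus 2.0 arrays of total RNA. The authors deposited log2 expression values per probe set (2.65 to 14.5). Their methods name frozen robust multi-array analysis (fRMA), correction of batch by surrogate variables (pSVA) and removal of outlying arrays, and the submitters' processing notes list affy. How many of these steps went into the deposited log2 values is not stated. No reads were counted, so the number of arrays limits the precision.

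Of 54675 probe sets, 41091 had 1 gene symbol in the platform annotation, 1807 had several or were controls and 11777 were not listed. Each of 19775 genes was represented by its brightest probe set on the HaCaT construct arrays (10523 genes had a choice), with no filter on low values. All 89 HaCaT construct arrays entered 1 limma fit (limma 3.58.1, R 4.3.3, files read by data.table, version 1.17.8) whose terms were the groups, by line and treatment, and the array batch (J, E, M). Residual degrees of freedom were 47 (prior 5.59). P-values are two-sided and Benjamini-Hochberg adjusted over all genes of a comparison, with a threshold of 0.05. Responses were compared by contrasts of contrasts. Summaries and plots used Python 3.11.15, pandas 2.3.3 and matplotlib 3.10.9. The fit was tested on simulated data.

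Groups and batches came from the labels. The labels of the batch M arrays hold no replicate number, so those arrays were numbered in listed order. Named genes are the 12 largest rises and falls at or above the median level, EGFR, HRAS and TFAP2A, the 3 members of each of 42 gene lists with the lowest adjusted p, and the 5 largest differences between responses each way. Other list members and genes outside this rule were chosen after their values were seen. The genes described and the lists were chosen with earlier results of these data known. Alternatives were other sets of arrays, no batch term, the replicate block, other probe set rules, a filter on low levels, quantile normalization, array weights and leaving out each array. The siRNA sequence was not used here.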

Additional observations from a re-analysis of the deposited data

Results flagged for a closer look

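The response to siEGFR differed between HaCaT-HRAS and the mean of HaCaT-Mock, HaCaT-EGFR and HaCaT-PIK3CA, by the test of the difference itself (limma, adjusted p under 0.05), for 26 genes, of which 10 are listed here. The difference was 1.13 for DUSP6, 1.00 for PLLP, 0.99 for ANTXR2, 0.94 for TMEM200A and 0.83 for IER3. It was -0.85 for ID1, -0.79 for ID2, -0.48 for DUSP10, a phosphatase of p38 and JNK, and -0.31 for C2CD3, a centriole protein. PLLP, a membrane protein of myelin and epithelia, was at 6.84, 6.55 and 6.90 with scramble and 6.57, 6.68 and 6.56 with siEGFR in HaCaT-HRAS, with overlap, and moved by -1.16 in the mean of the others. TMEM200A had a value of 0.39 in HaCaT-HRAS against -0.55, and DUSP10 -0.20 against 0.28. With 1 HaCaT-HRAS array left out the difference held for ANTXR2 and IER3 each time, was lost each time for DUSP6, PLLP and TMEM200A (adjusted p up to 0.149), and was lost for 5 of 6 arrays for DUSP10 and C2CD3, 3 for ID1 and 2 for ID2. DUSP5, CD274 and CMTM3 were also among the 26 genes. Their difference was lost for 6 of 6 arrays for DUSP5 and CMTM3 and for 4 for CD274.

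ABCA13, a lipid transporter, differed most, by -1.65 (adjusted p = 9.05e-05). It was chosen after its values were seen, since its level is below the median gene. It stood at 3.31, 3.28 and 3.17 with scramble and 3.77, 3.49 and 3.40 with siEGFR (0.30, adjusted p = 0.503), and rose by 2.25, 1.54 and 2.05 in HaCaT-Mock, HaCaT-EGFR and HaCaT-PIK3CA. On another probe set the difference was -0.59 (adjusted p = 0.253).

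Against HaCaT-Mock alone the response differed by 1.12 for ANTXR2, 0.82 for IER3, 0.74 for CD274 and 0.47 for CMTM3. CMTM3 was at 7.82, 7.77 and 7.90 against 7.91, 8.03 and 8.02 in HaCaT-HRAS (0.16, adjusted p = 0.187) and at -0.31 in HaCaT-Mock. Against HaCaT-Mock the differences of IER3 and CMTM3 were lost without each of the 6 arrays (adjusted p up to 0.21) and that of CD274 without siEGFR array 3 (0.0625).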

How the results depend on the processing

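The EGFR difference lay between -2.03 and -1.86 under every alternative. When only the 6 HaCaT-HRAS siRNA arrays were fitted, its adjusted p was 0.00236 (limma), and 0.0123 with the replicate block. The count of changed genes in HaCaT-HRAS (1243) was 2354 with the 24 siRNA arrays alone, 456 with batch J, 310 without the batch term, 3169 with array weights, and 808 to 990 with 1 array left out, lowest without siEGFR array 2. The count of genes whose response differed from the other lines (26) was 161, 3, 1 and 241 in the same order, and 3 to 8 with 1 array left out: 8 without siEGFR array 1 or scramble array 3, 6 without siEGFR array 3, 5 without scramble array 2, 4 without siEGFR array 2 and 3 without scramble array 1. Against HaCaT-Mock (5 genes) it was 75, 1, 0 (limma, 519 at an unadjusted p under 0.05) and 84, with 9 over all probe sets, 3 after quantile normalization and 2 to 3 with 1 array left out. The count of genes that differed between siEGFR and the inhibitors (695) was 213 with batch J, 137 without the batch term, 1547 with array weights and 471 to 542 with 1 array left out. The array weights of the 6 arrays lay between 0.68 and 1.71. The cause of these moves was not tested.

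With the replicate block 2037 genes changed among the 24 siRNA arrays and 637 among the 6 of HaCaT-HRAS (978 without it), 106 differed in response from the other lines and 43 from HaCaT-Mock. The numbers were not taken to pair the samples: only 2 of 3 come from the labels, and in batch J the difference between siEGFR arrays 1 and 2 correlated at 0.0631 with that between scramble arrays 1 and 2. Deviations from the group mean, which hold the batch, correlated at 0.276 to 0.746 between arrays of the same number, which was the best match each time. These values do not settle whether the arrays were paired.

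With the probe set that varies most in place of the brightest, FRK (-0.081), OSMR (0.13), TGFB2 (-0.019), TAP2 (0.11) and ACACA (0.026) turned direction. Of the 24 largest changes 16 stayed called under all 18 alternatives, and of 93 named genes called 27 did (genes below the filter were not tested under it). The signal over background limits genes at low levels, for which a filter on levels left the counts within 1.5 times.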

Other observations

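Stress and metabolic genes moved singly. DNAJB9, a chaperone of the endoplasmic reticulum, was the 1 of 11 unfolded protein response genes that changed, from 8.79, 8.82 and 8.61 to 8.30, 8.25 and 8.22 (-0.49, adjusted p = 0.000484). SQLE, squalene epoxidase, was the 1 of 14 sterol synthesis genes that rose (0.41, adjusted p = 0.0495), a call lost without each of the 6 arrays (up to 0.174). XPC, which recognises DNA damage, was the 1 of 10 p53 targets that rose (0.25, adjusted p = 0.00378). None of 20 bypass receptor tyrosine kinases and none of 13 eicosanoid enzymes passed (limma, 2 and 1 at an unadjusted p under 0.05).

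MMP1, interstitial collagenase, was at 4.61, 4.91 and 4.41 with scramble and at 6.33, 6.25 and 5.52 with siEGFR. The groups did not overlap, but the spread across the model was wide, and the difference of 1.39 (SE 0.492) did not pass (adjusted p = 0.0846). With the inhibitors MMP1 had a value of -0.75 (adjusted p = 0.323), and the 2 responses differed by 2.14 (SE 0.635, adjusted p = 0.0442), a call lost without each of the 6 arrays (0.0652 to 0.121). MMP1 was chosen after its values were seen.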
